A study of Mus musculus with 42 samples.

Results

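The activin family genes described here are the 4 beta subunit genes measured in mouse liver, Inhba, Inhbb, Inhbc and Inhbe, with Fst, which encodes follistatin. They were taken by gene name from a read count table of 54532 genes, and all 5 were found. All 5 also reached a mean of 25 counts per library over the 42 libraries, as did 13394 genes in all. The set was selected on measured values, because Inhba was lower on the high-fat diet at ZT 0, 4 and 8 in these same libraries. The diet values at those time points are therefore given as a description with no test, as is every course of Inhba over time that includes those hours. The libraries came from female C57BL/6 mice (substrain C57BL/6NHsd in the study's methods) fed from weaning at 3 weeks of age for 3 weeks with AIN93G, in which soybean oil provides 16% of energy, or with a high-fat diet (HFD) of the same kind in which it provides 45%. Mice were not fasted, were under a 12:12 h light/dark cycle, and were killed over 2 days at 4 h steps of Zeitgeber time (ZT), from ZT 0, which is lights on, to ZT 24. The livers of 3 mice for each diet and time were sequenced. No mouse carried a transgene or received another treatment, and each library came from a separate mouse.

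Activins are dimers of beta subunits and belong to the transforming growth factor beta family. A dimer binds a type II receptor (ACVR2A or ACVR2B), which recruits a type I receptor, ALK4 (Acvr1b) or ALK7 (Acvr1c), and the complex phosphorylates SMAD2 and SMAD3. Follistatin binds activins outside the cell and keeps them from their receptors, while the inhibin alpha subunit (Inha) pairs with a beta subunit to form inhibin, which antagonizes activin together with betaglycan (Tgfbr3). Inhbc and Inhbe are known as genes of the hepatocyte, and activin E, the product of Inhbe, is known as a liver hormone that acts on adipocytes through ALK7. Activin A, the product of Inhba, is known in liver for restraining hepatocyte growth.

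The genes lie on 3 chromosomes in the coordinates of the count table, whose genome build was mm10. Inhba is at chr13:16011851-16031621 on the plus strand and Fst at chr13:114452290-114458951 on the minus strand. Inhbb is at chr1:119415465-119422248 on the minus strand. Inhbe (chr10:127348857-127354411) and Inhbc (chr10:127356322-127370431) are neighbours on the minus strand, 1910 bases apart. Antisense and pseudogene models that overlap Inhba, Inhbc, Inhbe or Fst held at most 148 counts over all libraries, 1.48% or less of the overlapped gene. The libraries did not mark strand, so reads of these overlaps cannot be assigned by strand.

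The beta subunits are related in sequence, and the last 60 coding bases of each, stop codon included, are shown from the GENCODE M21 transcripts (GRCm38) because they carry the closing cysteines that this family shares. Capitals mark the cysteine codons.
Inhba: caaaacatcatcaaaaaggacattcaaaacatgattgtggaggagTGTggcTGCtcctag
Inhbb: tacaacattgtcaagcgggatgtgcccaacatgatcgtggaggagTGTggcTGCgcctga
Inhbc: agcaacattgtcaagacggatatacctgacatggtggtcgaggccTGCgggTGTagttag
Inhbe: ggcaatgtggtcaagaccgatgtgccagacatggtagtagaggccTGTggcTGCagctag
All 4 hold a pair of cysteine codons, separated by a glycine codon, at the same distance from the stop. Over the last 300 coding bases, Inhba and Inhbb were identical at 70.0% of positions and Inhbc and Inhbe at 69.0%, whereas the 4 pairs across these groups were identical at 60.7% to 63.7%. The Inhbc and Inhbe coding sequences, 1059 and 1053 bases long, were identical at 58.9% of positions over their whole length.

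For Inhba, the gene on whose diet values the set was chosen, the 250 bases before its start of transcription are shown from RefSeq (GRCm38.p6, chr13:16011601-16011850, plus strand), and capitals mark 2 matches to searched motifs.
Inhba promoter: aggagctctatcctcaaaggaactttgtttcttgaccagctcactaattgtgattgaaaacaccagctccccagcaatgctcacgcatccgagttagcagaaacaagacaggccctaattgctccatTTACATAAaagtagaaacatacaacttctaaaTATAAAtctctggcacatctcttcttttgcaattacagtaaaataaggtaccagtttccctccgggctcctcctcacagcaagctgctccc
The match at position -123, on the opposite strand, is to the D-box TTATGTAA, the element read by the clock output factors DBP, TEF and HLF, which 0.819% of 32851 promoters of this length held on either strand. The letters TATAAA at position -91 were held by 12.4%. Inhbe had a match at position -181, on the opposite strand, to TGATGNAA, the composite element of C/EBP and ATF4, which 3.45% of promoters held. It is shown with its flanks (chr10:127352011-127352040, minus strand), with the match in capitals.
Inhbe site: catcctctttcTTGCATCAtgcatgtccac
RefSeq starts Inhbe at base 127351848 and GENCODE at base 127354411, so that this site is upstream in the former and within an exon in the latter. Inhbc had a match to CAGACA, the box bound by SMAD3, held by 17.1% of promoters, and Inhbb had no match to the 8 motifs searched. The other motifs searched, on both strands as well, were the E-box CACGTG, held by 6.02% of promoters, the nuclear receptor element AGGTCA (14%), the cAMP response element TGACGTCA (1.55%) and the forkhead site GTAAACA (3.17%). A match is a run of letters and says nothing of binding in these mice, and the promoter of Fst was not analysed here.

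All 42 libraries were labelled liver, but 10 of them did not have the expression profile of liver. Albumin (Alb) was at 73668 to 129838 CPM (counts relative to the scaled total of the library) in 32 libraries and at 11.7 to 66.9 CPM in the other 10, so no library was near the limit of 10000 CPM used to call a library liver. In the 10, all 8 hepatocyte markers were lower than in every liver library and all 8 adipocyte markers higher, and they are called adipocyte-rich here. The summed level of the adipocyte markers was 9698 to 17309 CPM in them and 11.9 to 82.0 CPM in the liver libraries, the highest of which was AIN93G ZT 4 replicate 3. The adipocyte-rich libraries were all those of AIN93G at ZT 16 and ZT 20, and replicates 1 and 2 of ZT 24 on each diet, which left 1 liver library per diet at ZT 24. At ZT 12 the libraries of a group differed in the clock gene Arntl, with 1.28, 47.5 and 51.7 CPM on AIN93G and 1.98, 1.04 and 42.6 CPM on the HFD. The labels place AIN93G replicate 2 and HFD replicate 3 of ZT 12 in the light phase and the others in the dark phase. The ZT 24 liver libraries had 0.875 CPM (AIN93G) and 1.29 CPM (HFD) of Arntl, against 43.8 to 51.2 CPM at ZT 0. The labelled times of some ZT 12 and ZT 24 libraries may therefore be wrong, which was not tested, and values by time are given by label. Library totals were 14592481 to 21368409 counts.

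In liver libraries the beta subunit genes Inhba, Inhbc and Inhbe were well expressed, while in the adipocyte-rich libraries Inhbb was the only beta subunit gene above 2.13 CPM. Inhbc was at 45.8 to 121 CPM in the 32 liver libraries (median 80.4) and at 0 to 2 counts in each adipocyte-rich library. Inhbe was at 30.3 to 116 CPM (median 50.2) in liver and at 0 to 3 counts in the others. Both genes thus followed the hepatocyte markers, and the 3 counts that a library at 0 still allows correspond to at most 0.152 CPM in the adipocyte-rich libraries. Inhba was at 10.3 to 129 CPM in liver (median 38.4) and at 0.176 to 2.13 CPM in the adipocyte-rich libraries. Inhbb had the opposite order, with 0.489 to 6.24 CPM in liver (median 2.29) and 28.2 to 88.8 CPM in the adipocyte-rich libraries, 22.6 times the liver median. Fst was at 0.997 to 9.29 CPM in liver and 5.34 to 21.8 CPM in the adipocyte-rich libraries, ranges that overlapped, with medians of 4.46 and 11.3 CPM. No test was made between the kinds of library as such, because the kinds were defined from measured genes. The labelled diet tests of ZT 16 and ZT 20 below set liver against adipocyte-rich libraries, so their p-values carry the same limit. The share of all genes lying apart between the kinds was not counted, but edgeR called 55.7% and 58.6% of all genes in those tests.

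**Figure D1:**
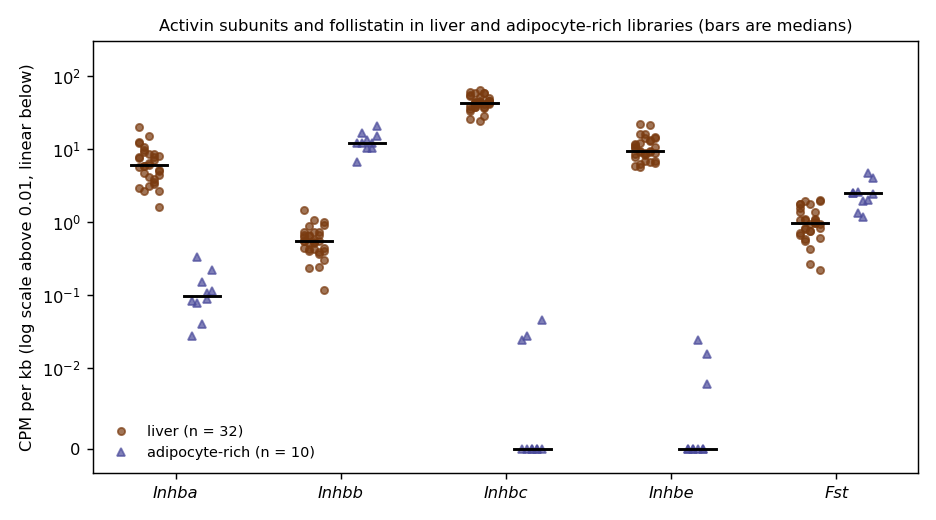
Level of each gene in CPM per kb of exon (log axis above 0.01, linear below) in the 32 liver libraries (circles) and the 10 adipocyte-rich libraries (triangles), with the median as a bar. Inhba, Inhbc and Inhbe are higher in every liver library than in any adipocyte-rich library, Inhbb is lower in every one, and Fst overlaps.

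Levels of different genes can be compared only per length. Per kb of exon, Inhbc had a median of 43.2 CPM per kb in liver, Inhbe 9.43, Inhba 6.02, Fst 0.973 and Inhbb 0.539. Of the summed level of the 4 beta subunits per kb, Inhbc made up a median of 70.7% (53.1 to 80.5% over the 32 liver libraries), Inhbe 15.7% (10.1 to 28.5%), Inhba 9.43% (2.62 to 32.4%) and Inhbb 0.829% (0.186 to 1.93%). With these lengths the ranges of Inhbe and Inhba overlapped, and those of Inhbc and Inhbb lay apart from all others. The share of Inhbe depends on its length, since GENCODE gives it 5319 exonic bases and the part within the RefSeq gene is 2211 bases. With the shorter length the medians became 56.6% for Inhbc (44.6 to 69.2%), 31% for Inhbe (21.2 to 49%) and 7.69% for Inhba (1.96 to 27.2%), in the same order, and the ranges of Inhbc and Inhbe then overlapped. In the adipocyte-rich libraries Inhbb made up a median of 99.1% (97.9 to 99.6%).

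**Figure D2:**
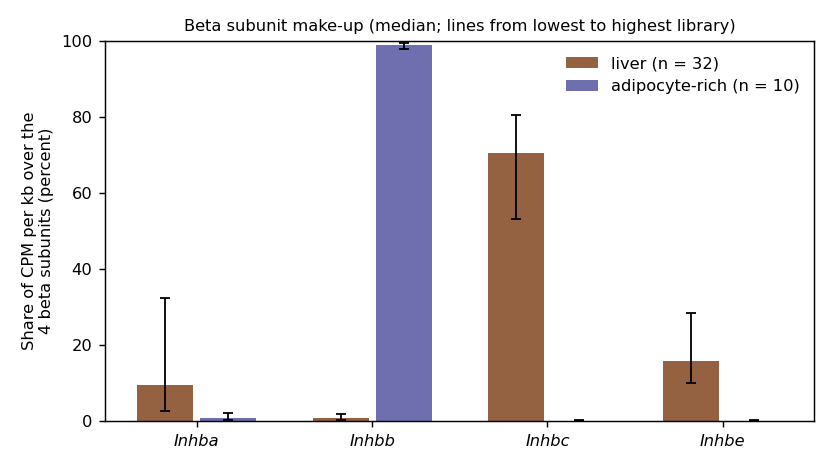
Share of each beta subunit gene in the summed CPM per kb of the 4 genes, in percent, with GENCODE lengths. Bars are medians and lines run from the lowest to the highest library, for 32 liver and 10 adipocyte-rich libraries. Inhbc holds a median of 70.7% in liver and Inhbb 99.1% in the adipocyte-rich libraries.

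The HFD libraries had less Inhba than the AIN93G libraries at each of ZT 0, 4 and 8, all of which were liver libraries. At ZT 0 the AIN93G mice had 78.6, 68.8 and 95.5 CPM and the HFD mice 24.8, 28.3 and 48.7 CPM. At ZT 4 the values were 54.2, 50.5 and 77.1 CPM on AIN93G and 37.8, 20.0 and 21.4 CPM on the HFD. At ZT 8 they were 37.0, 41.1 and 22.9 CPM on AIN93G and 10.3, 18.5 and 17 CPM on the HFD. Every HFD value lay below every AIN93G value of its time point, although the HFD mice of ZT 0 overlapped the AIN93G mice of ZT 8. The difference of mean log2 CPM, HFD minus AIN93G, was -1.30, -1.23 and -1.13, and its mean of -1.22 corresponds to a level 2.33-fold higher on AIN93G. This order at all 3 time points was the base of the choice of genes, and it was shared by 14 of the 13394 genes (0.105%), with 18 genes in the opposite order. The median difference over all genes was -0.0048. In bulk tissue, fewer cells that express a gene and less RNA per cell cannot be told apart.

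The other 4 genes did not share that order. Fst was lower in every HFD mouse at ZT 0, with 4.60, 3.83 and 7.09 CPM against 8.17, 8.81 and 8.02 CPM, and overlapped at ZT 4 and ZT 8, with a mean difference of -0.36 on the log2 scale over the 3 time points. The share of all genes in that order at ZT 0 alone was not counted. Inhbe was at 30.8, 50.7 and 46.6 CPM on AIN93G and 35.2, 47.3 and 56.7 CPM on the HFD at ZT 0. At ZT 4 it was at 49.6, 34.6 and 62.8 CPM on AIN93G and 85.0, 44.9 and 113 CPM on the HFD, and at ZT 8 at 116, 76.0 and 69.6 CPM against 78.4, 60.3 and 65.1 CPM. The diets overlapped for Inhbe at each of these time points, and its mean difference was 0.15. Inhbc, with 81.8 ± 17.6 CPM on AIN93G and 82.4 ± 19.6 CPM on the HFD (SD, n = 9), had a mean difference of 0.0041. Inhbb had 2.19 ± 0.517 CPM on AIN93G and 2.55 ± 1.79 CPM on the HFD (SD, n = 9). Its lowest library, HFD ZT 8 replicate 1, rested on 7 counts, a depth at which changes below several-fold cannot be resolved.

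**Figure D3:**
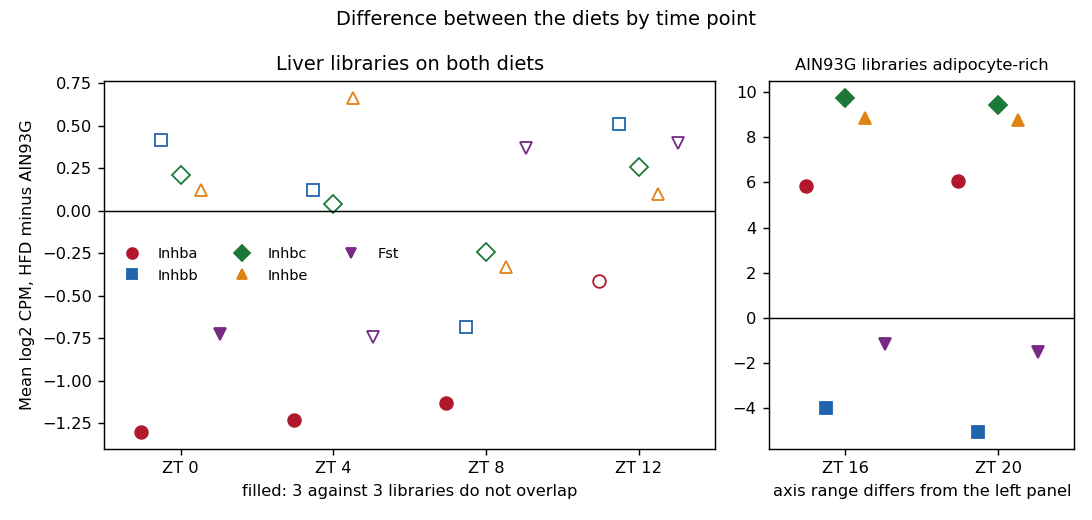
Mean log2 CPM of the 3 HFD libraries minus that of the 3 AIN93G libraries at each time point, for each gene. Filled symbols mark gaps in which the 3 HFD and 3 AIN93G values do not overlap, and the right panel, with its own axis, holds the time points at which the AIN93G libraries were adipocyte-rich. Inhba is the gene that lies below 0 without overlap at ZT 0, 4 and 8.

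Summed markers of other liver cells were set beside these values. Over ZT 0, 4 and 8 the endothelial markers summed to 196 to 252 CPM on AIN93G and 171 to 271 CPM on the HFD, and the stellate and fibroblast markers to 146 to 271 and 133 to 216 CPM. The macrophage markers summed to 247 to 359 CPM on AIN93G and 237 to 650 CPM on the HFD, and the hepatocyte markers to 108650 to 162174 and 104329 to 142742 CPM. The ranges overlapped between the diets for each of these lists, as they did for the adipocyte markers at 11.9 to 82.0 and 14.1 to 30.4 CPM and for the cholangiocyte markers at 4.91 to 17 and 2.49 to 11.9 CPM. The lymphocyte markers summed to 1.31 to 3.55 CPM on AIN93G and 0.924 to 2.93 CPM on the HFD. These ranges pool the 3 time points. Pooled so, Inhba overlapped too, at 22.9 to 95.5 CPM on AIN93G and 10.3 to 48.7 CPM on the HFD. No marker of these lists lay apart at all 3 time points, but some did at single ones. Among them were Csf1r (higher on the HFD at ZT 0 and ZT 8), Tat (higher at ZT 8) and Fgb (lower at ZT 8). Median log2 differences ran from -0.34 (cholangiocyte and adipocyte markers) to 0.29 (macrophage markers). The part of any of these cells in the Inhba values was not tested.

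At ZT 12, which had no part in the choice of genes, the diet difference of Inhba was not past the test. The AIN93G mice had 17.1, 129 and 61.7 CPM and the HFD mice 39.1, 45.1 and 32.8 CPM, so the HFD values lay within the AIN93G range. The change was -0.83 ± 0.58 on the log2 scale (SE, n = 3 per diet), and its adjusted p was 0.937 by edgeR's quasi-likelihood test with Benjamini-Hochberg adjustment. The adjusted p was 0.438 to 1 over the 13 alternatives, and among the libraries labelled dark phase alone (2 against 2) the change was 0.11. None of the 5 genes passed the edgeR test at ZT 12, none had an unadjusted p under 0.05, and DESeq2 called none. edgeR called 0% of 13394 genes, of which 554 had an unadjusted p under 0.05, and DESeq2 called 5 genes, so the time point gave few calls for any gene. The fitted changes were 0.48 ± 0.36 for Inhbb, 0.26 ± 0.17 for Inhbc, 0.11 ± 0.20 for Inhbe and -0.01 ± 0.61 for Fst (log2, SE). Fst ranged from 0.997 CPM in AIN93G replicate 1 to 8.16 CPM in AIN93G replicate 2, the same libraries that were lowest and highest for Inhba and that had 1.28 and 47.5 CPM of Arntl. The other libraries did not follow Arntl in this way. AIN93G replicate 3, with 51.7 CPM of Arntl, had 61.7 CPM of Inhba and 3.83 CPM of Fst. HFD replicate 3, with 42.6 CPM of Arntl, had the lowest Inhba of the HFD libraries.

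On both diets the Inhba values of ZT 8 lay below those of ZT 0 without overlap. How many of all genes did so was not counted. The means at ZT 0 and ZT 8 were 80.9 ± 13.5 and 33.6 ± 9.56 CPM on AIN93G and 33.9 ± 12.9 and 15.3 ± 4.35 CPM on the HFD (SD, n = 3). Averaged over the diets, Inhba was 2.31-fold higher at ZT 0 than at ZT 8, against a median log2 difference of -0.01 over all genes. These are values that chose the set, so no test of them is given. Marker sums of some other cells differed between the same hours. The cholangiocyte markers summed to 7.68 to 11.9 CPM at ZT 0 and 2.49 to 5.84 CPM at ZT 8, with means of Sox9 3.52-fold, of Krt7 2.54-fold and of Krt19 1.13-fold higher at ZT 0 and of Epcam 1.05-fold higher at ZT 8. The adipocyte markers summed to 12.9 to 19.9 CPM at ZT 0 and 20.1 to 30.4 CPM at ZT 8. Means of Cidec were 1.99-fold, of Pparg 1.93-fold and of Fabp4 1.02-fold higher at ZT 8. Those of Adipoq, Plin1, Retn, Cfd and Lep, which averaged under 25 counts in liver, were 0.816-fold to 1.24-fold the ZT 0 level. The hepatocyte markers overlapped, at 117382 to 134949 and 108650 to 162174 CPM. The part of these cells in the Inhba values was not tested.

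A test over ZT 0, 4 and 8 with diet as a term (18 liver libraries) was added after the data were seen because it leaves out ZT 12, and it is reported for the other 4 genes. edgeR called none of the 4, against 9.79% of all genes, Inhbe and Fst had an unadjusted p under 0.05, and DESeq2 called 1, Inhbe. Inhbe (adjusted p = 0.0738, called in 4 of 21 alternatives) had means 1.74-fold higher at ZT 8 than at ZT 0, and Fst (adjusted p = 0.117, called in 2 of 21) had means 2.04-fold higher at ZT 0. For Inhbb and Inhbc the adjusted p was 0.215 and 0.614.

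**Figure D4:**
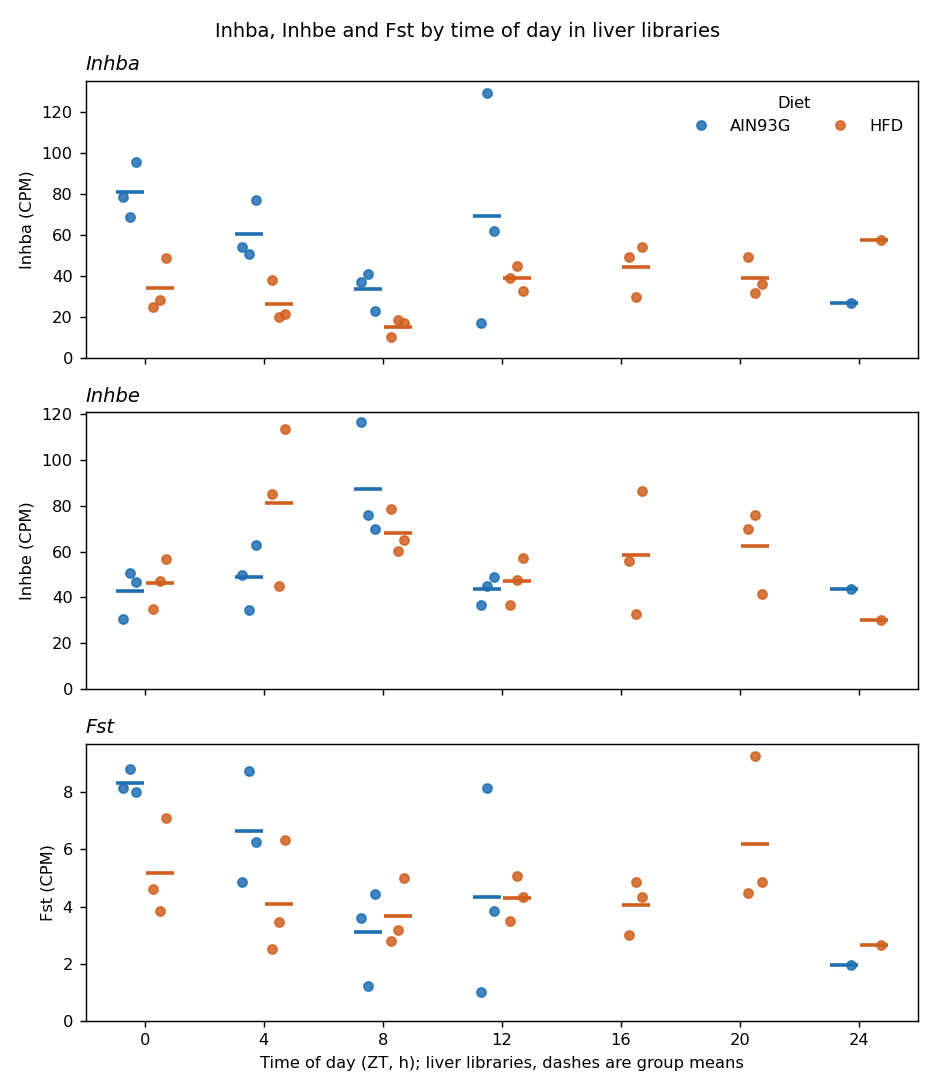
CPM of Inhba, Inhbe and Fst in each liver library by Zeitgeber time, for AIN93G (blue) and HFD (orange), with group means as dashes. ZT 16 and ZT 20 have HFD libraries alone and ZT 24 has 1 library per diet. On both diets the Inhba values of ZT 8 lie below those of ZT 0, and the HFD values are between 29.5 and 54.3 CPM at ZT 12, 16 and 20.

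On the HFD, where all libraries of ZT 0 to ZT 20 were liver, Inhba was lowest at ZT 8 and highest at ZT 16. The ZT 16 mice had 49.3, 29.5 and 54.3 CPM and the ZT 20 mice 49.4, 31.7 and 35.8 CPM. All 9 HFD mice of ZT 12, 16 and 20 lay above all 3 mice of ZT 8, an order that was not counted over all genes. From low to high, the HFD means were 15.3 ± 4.35 CPM (ZT 8), 26.4 ± 9.89 (ZT 4), 33.9 ± 12.9 (ZT 0), 39 ± 9.25 (ZT 20), 39 ± 6.16 (ZT 12) and 44.4 ± 13.1 (ZT 16) (SD, n = 3), and from ZT 4 upwards each step was smaller than the SD of its groups. Since ZT 0, 4 and 8 are among these times, they are given with no test.

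Over the HFD day edgeR called none of the other 4 genes, against 2.29% of all genes (7.73% without HFD ZT 12 replicate 3), none of the 4 had an unadjusted p under 0.05, and DESeq2 called none of them. For Inhbe the HFD means were 46.4 ± 10.8 CPM (ZT 0), 81.0 ± 34.3 (ZT 4), 67.9 ± 9.40 (ZT 8), 47.1 ± 10.3 (ZT 12), 58.3 ± 26.9 (ZT 16) and 62.5 ± 18.5 (ZT 20) (SD, n = 3). Its range of 0.80 log2 units had an adjusted p of 0.423. Inhbc was between 67.5 ± 18.5 CPM at ZT 8 and 101 ± 18.9 CPM at ZT 16 (adjusted p = 0.514). Fst was between 3.67 ± 1.19 CPM at ZT 8 and 6.21 ± 2.67 CPM at ZT 20 (adjusted p = 0.593), and Inhbb between 1.51 ± 0.436 CPM at ZT 20 and 4.06 ± 2.30 CPM at ZT 0 (adjusted p = 0.272). For each of the 4 genes the mice of its lowest and its highest time point overlapped.

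Over ZT 0 to ZT 12 on the HFD edgeR called none of these 4 genes and 0.127% of all genes (4.73% without HFD ZT 12 replicate 3), while Inhbe alone (adjusted p = 0.274) had an unadjusted p under 0.05 and DESeq2 called none of the 4. On AIN93G over the same hours edgeR called none of the 4 and 0% of all genes, of which 1286 had an unadjusted p under 0.05. Without AIN93G ZT 12 replicate 1 it called 2.15% of all genes. Inhbe alone of the 4 had an unadjusted p under 0.05 on AIN93G (adjusted p = 0.258, 0.000813 to 0.592 over 18 alternatives), and DESeq2 called it alone of the 4. Its AIN93G means were 42.7 ± 10.5 CPM (ZT 0), 49.0 ± 14.1 (ZT 4), 87.3 ± 25.3 (ZT 8) and 43.7 ± 6.26 (ZT 12) (SD, n = 3), and all 3 mice of ZT 8 lay above the 9 others. The share of all genes with such an order was not counted.

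The variation of the diet difference from ZT 0 to ZT 8 was tested across all genes and is reported for the other 4 genes alone, since the Inhba values of these hours chose the set. None of the 4 was called by edgeR, none had an unadjusted p under 0.05 and DESeq2 called none. edgeR called 0% of all genes, of which 467 had an unadjusted p under 0.05. Inhbe had the lowest p (adjusted p = 1), with a mean on the HFD that was higher by 0.67 log2 units at ZT 4 and lower at ZT 8, where the difference was -0.33. Without a filter on low counts the same test gave Inhbe an adjusted p of 0.00374.

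At ZT 16 and ZT 20 the labelled diet comparison set HFD liver libraries against AIN93G libraries that were adipocyte-rich, and all 5 genes passed the edgeR test. The hepatocyte markers summed to 103991 to 153518 CPM in the 6 HFD libraries and to 17.3 to 60.7 CPM in the 6 AIN93G libraries, and the adipocyte markers to 12.4 to 23.6 and 9698 to 16238 CPM. The stellate and fibroblast markers summed to 134 to 211 CPM in the HFD libraries and 1783 to 4562 CPM in the AIN93G libraries, the cholangiocyte markers to 8.22 to 11.7 and 44.9 to 320 CPM, the macrophage markers to 209.7 to 357.7 and 100.4 to 187.9 CPM, and the lymphocyte markers to 0.94 to 3.86 and 0.405 to 631 CPM. Of the 6 stellate and fibroblast markers, Lrat and Reln were higher on the HFD and 4 were lower. Of the 5 macrophage markers 1 was higher and 1 lower. The endothelial sums overlapped, with Stab2 and Clec4g higher and Pecam1 and Cdh5 lower in the HFD libraries. The sum of the mammary epithelium markers overlapped as well, at 89.1 to 160 and 20.2 to 219 CPM. Of these, 4 of 5 tested (Krt5, Krt14, Csn3 and Elf5) were lower on the HFD at both times. These 4 averaged under 25 counts in liver and passed the filter through the adipocyte-rich libraries, so their calls are no evidence. Diet and tissue content therefore cannot be told apart at these time points. Higher on the HFD were 3 genes, Inhba, Inhbc and Inhbe, against 27.7% of all genes at ZT 16 and 28.4% at ZT 20. Lower were 2, Inhbb and Fst, against 28% and 30.2%. Scaling to library size in place of TMM moved the median of all genes to -0.86 and -0.67 (log2) and the share of calls that were higher from 49.8% to 19.1% at ZT 16 and from 48.5% to 23.1% at ZT 20, while each of the 5 genes kept its direction and its call. Inhba had 0.526, 0.486 and 0.953 CPM on AIN93G at ZT 16 and 0.669, 0.726 and 0.176 CPM at ZT 20, and its change was 6.07 ± 0.38 and 6.17 ± 0.39 on the log2 scale (SE, adjusted p = 1.97e-05 and 3.4e-06). Inhbb had 28.2, 52.0 and 43.4 CPM on AIN93G at ZT 16 against 3.12, 1.80 and 2.40 CPM on the HFD, with changes of -4.05 ± 0.31 at ZT 16 and -5.13 ± 0.26 at ZT 20 (log2, SE, adjusted p = 4.6e-05 and 9.46e-07).

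Inhbc had no count in the 3 AIN93G libraries of ZT 16 and was at least 831-fold higher on the HFD, at 101 ± 18.9 CPM (SD, n = 3), against a floor of 3 counts per library. Inhbe had no count there either and was at least 480-fold higher, at 58.3 ± 26.9 CPM. At ZT 20 the 3 AIN93G libraries together held 1 count of Inhbc and 2 of Inhbe, and the ratios were 6842 (95% exact interval 1227 to 270318) and 2394 (662 to 19777), intervals that cover counting error only. Fst was at 11.6, 11.7 and 5.34 CPM on AIN93G at ZT 16 against 3.00, 4.86 and 4.34 CPM on the HFD, a change of -1.23 ± 0.37 on the log2 scale (SE, edgeR adjusted p = 0.0253). That call was lost in 5 of 11 alternatives, with an adjusted p up to 0.0777. At ZT 20 the change of Fst was -1.48 ± 0.34 (SE, adjusted p = 0.00573) and was called in all 11 alternatives.

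The receptors and other genes of the pathway were taken from lists written for this work. Of the activin receptors, ALK7 (Acvr1c) was 30.5 to 125 CPM in the adipocyte-rich libraries and 0 to 1.21 CPM in liver, while Acvr1b, Acvr2a and Acvr2b overlapped between the kinds, with liver medians of 16.3, 32.3 and 3.21 CPM. The beta subunit genes of liver and ALK7 were thus found in different libraries, with Inhbb and ALK7 high in the same ones. Betaglycan (Tgfbr3), the co-receptor of inhibin, was 72.2 to 171 CPM in the adipocyte-rich libraries and 7.87 to 22.9 CPM in liver. The inhibin alpha subunit Inha was at most 0.612 CPM in liver and 2.53 CPM in the adipocyte-rich libraries, and the follistatin-like gene Fstl3 at most 0.549 and 1.54 CPM. Furin, the protease that cleaves activin precursors, was 201 to 309 CPM in liver and 51.5 to 111 CPM in the adipocyte-rich libraries.

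At ZT 16 and ZT 20, where the AIN93G libraries were adipocyte-rich, edgeR called 55.7% and 58.6% of all genes, and 3 of the 6 receptors tested at each time. Acvr2a was higher on the HFD and Acvr1c lower at both, with Acvr1b lower at ZT 16 and the type II receptor Bmpr2 lower at ZT 20. The antagonists had 1 of 2 higher and 1 lower at both times. The SMAD genes had 2 of 8 higher and 2 lower at ZT 16 and 2 higher and 1 lower at ZT 20, and the SMAD2/3 target genes 1 of 8 higher at both and 3 and 4 lower. Of the 12 other ligands 4 were higher at both and 6 and 5 lower, and of the 4 convertases 2 were higher. Of the 10 ATF4 response genes 1 was higher at both and 2 and 4 lower. All 8 hepatocyte markers were higher and all 8 adipocyte markers lower at both times.

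The same lists were counted in the comparisons among liver libraries. Over ZT 0, 4 and 8 the HFD values lay below all AIN93G values at each time point for Atf4, a stress response factor, at 80.5 ± 12.6 CPM on the HFD and 108 ± 12.4 CPM on AIN93G (SD, n = 9). This was 1 of the 10 genes of the ATF4 response, against 0.105% of all genes in that order. None of the 2 antagonists, 6 receptors, 8 SMAD genes, 8 SMAD2/3 target genes, 12 other ligands of the family and 4 proprotein convertases tested shared the order in either direction. Of all these genes, 1 receptor (Acvr1c), 2 targets, 5 ligands (Tgfb2, Tgfb3, Mstn, Gdf11 and Bmp7) and 2 ATF4 response genes (Asns and Psat1) averaged under 25 counts in the liver libraries. They passed the filter through the adipocyte-rich ones, so that for them little could be detected in liver. Median log2 differences of those lists ran from -0.13 for the ligands to 0.094 for the convertases. By time over ZT 0, 4 and 8 of both diets, edgeR called 9.79% of all genes and 2 of the 8 SMAD2/3 target genes, the repressors Skil (adjusted p = 0.00218) and Tgif1 (adjusted p = 0.0403), which were 1.97-fold and 1.53-fold higher at ZT 0 than at ZT 8. It also called Tgfbr3 (1.66-fold higher at ZT 8), the stress ligand Gdf15 (2.96-fold higher at ZT 0), and the ATF4 response genes Fgf21 (3.92-fold higher at ZT 0) and Atf5 (1.96-fold higher at ZT 0). No receptor, SMAD gene or convertase was called. Over the HFD day edgeR called 2.29% of all genes. Of the pathway lists it called Atf4 alone (adjusted p = 0.0158), 1 of the 10 ATF4 response genes, with Sox9 of the cholangiocyte markers. At ZT 12 it called no gene of any list and 0% of all genes. Among the marker lists the test over ZT 0, 4 and 8 called Cidec of 8 adipocyte and Sox9 of 4 cholangiocyte markers, and none of the 8 hepatocyte, 5 endothelial, 5 macrophage and 6 stellate and fibroblast markers. Of these, 5 adipocyte and 2 cholangiocyte markers (Krt7 and Epcam) averaged under 25 counts in the liver libraries. Little could be detected for them there.

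Across the 32 liver libraries, genes whose log2 CPM was most like that of Inhba included Mta2 (r = 0.80) and Mapre1 (r = 0.77). For Inhbe they were Scyl3 (r = 0.75), Mtif3 (r = 0.74) and Ctnnal1 (r = 0.72), for Fst Dlc1 (r = 0.73), Psmd11 (r = 0.73) and Tmem132e (r = 0.72), for Inhbc Prmt5 (r = 0.70), Pdlim5 (r = 0.69) and Twnk (r = 0.68), and for Inhbb Cdc123 (r = 0.63), Atn1 (r = 0.63) and Ssrp1 (r = 0.62). Among the 5 genes themselves the closest pairs were Inhba with Fst (r = 0.47) and Inhbc with its neighbour Inhbe (r = 0.35). These are Pearson correlations over libraries that share time points and diets, and they are given as descriptions.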

How the data were processed

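The deposited table held the authors' raw read counts per gene for 42 libraries of poly(A) RNA, prepared with a kit that does not mark strand and sequenced as paired ends. Per the labels, the processing notes named fastp, STAR, HTSeq 0.6.1, DESeq and STAR-Fusion with build mm10, with no role given, and no other columns of values were used. Gene names and coordinates came from the table. The gene set and the gene lists were chosen with earlier results of these data known.

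CPM were counts divided by library size times the TMM factor over 42 libraries, and log2 CPM used a prior count of 2. Genes averaging 25 or more counts per library were tested with edgeR 4.0.16 (R 4.3.3, limma 3.58.1), glmQLFit and glmQLFTest, with Benjamini-Hochberg adjustment over 13394 genes and a threshold of 0.05. Each diet test used the 6 libraries of a time point, and each time test those of its diet. ZT 24 entered no test. Named genes were the 5 genes, genes of the lists that passed a test, and the 3 most correlated genes of each, of which 1 is not reported here. Arntl and list genes given by kind of library (Inha, Fstl3, Acvr2b) were added after their values were seen. Scripts were tested on simulated data. DESeq2 1.42.0, library size scaling, other gene filters, joint fits, omission of ZT 12 and of each library were alternatives. Motifs and identities were computed from RefSeq and GENCODE M21 sequences with Biopython 1.88.

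Library totals of 14592481 to 21368409 counts limit the precision of low counts. The exact intervals of ratios cover counting error only, while SE and SD take in the spread between mice. Replicates are separate mice per the study's methods, and replicate numbers follow accession order. All 42 replicate pairs differed beyond sampling noise (chi-square per degree of freedom at least 16.0).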

Additional observations from a re-analysis of the deposited data

Results flagged for a closer look

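Inhba was flagged because the HFD and AIN93G libraries did not overlap in opposite directions at different times of day. The mean log2 CPM on the HFD minus that on AIN93G was -1.30 at ZT 0, -1.23 at ZT 4 and -1.13 at ZT 8, and 5.85 at ZT 16 and 6.05 at ZT 20. The difference between these time points was not tested. All libraries of ZT 0, 4 and 8 were liver, whereas the AIN93G libraries of ZT 16 and ZT 20 had 12.3 to 48.7 CPM of Alb and 878 to 1993 CPM of Adipoq, so diet and tissue content cannot be told apart at the later times. On the HFD itself, Inhba was within 29.5 to 54.3 CPM at ZT 16 and ZT 20. Groups of 3 libraries are too small for a check of single outlying values.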

How the results depend on the processing

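The difference of Inhba between the diets over ZT 0, 4 and 8 was -1.32 to -1.14 over 20 alternatives. None of the 5 genes was called at ZT 12 in 13 alternatives, but signs there were unstable. Without the filter on low counts Fst was at 0.011, with DESeq2 at 0.0010, and with labelled phase as a covariate at 0.22, against -0.01. Leaving out libraries gave -0.47 to 0.82 for Fst (0.82 without AIN93G replicate 2, 0.13 without HFD replicate 1) and -0.038 to 0.27 for Inhbe (-0.038 without HFD replicate 3). Among libraries labelled dark phase alone Fst was 0.84, Inhba 0.11 and Inhbe -0.015 (log2). Of the 5 genes, 4 to 5 were called at ZT 16 and 5 at ZT 20 under 11 alternatives each. The following counts by time include Inhba, whose values at ZT 0, 4 and 8 chose the set, so that a call of Inhba in them is no evidence. For time on the HFD over ZT 0 to ZT 20, DESeq2 called 1 gene, no filter 3 and leaving out libraries 0 to 1, against 0. Over ZT 0 to ZT 12 DESeq2 called 1 and no filter 3 on the HFD, and DESeq2, no filter (Inhbe in both) and omission of ZT 12 (Inhba) called 1 each on AIN93G. For the interaction no filter called 1. For time over ZT 0, 4 and 8 of both diets, against 1 (Inhba), DESeq2 called 2, no filter 3 and leaving out libraries 1 to 2. The cause of these changes was not tested. Over the alternatives the share of all genes called was 31% to 76.2% at ZT 16, 34.3% to 71.2% at ZT 20, and 0% to 0.0375% at ZT 12. By time it was 1.25% to 11.3% on the HFD over ZT 0 to ZT 20, 0% to 5.67% over ZT 0 to ZT 12, 0% to 2.54% on AIN93G and 6.14% to 13% over both diets, and for the interaction 0% to 0.948%. The calls with no filter take in genes with few counts. No paired analysis was possible because the labels give no replicate numbers. Counts of Inhbb and Fst in liver, 7 to 138 per library, limit what could be detected.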

Other observations

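The liver libraries of ZT 24, 1 per diet, entered no test. Inhba was at 26.8 CPM on AIN93G and 57.7 CPM on the HFD there, the opposite order to ZT 0, where it was at 68.8 to 95.5 and 24.8 to 48.7 CPM. Inhbe was at 43.9 and 30.3 CPM, Inhbc at 45.8 and 75.8 CPM, Inhbb at 3.10 and 2.74 CPM, and Fst at 1.95 and 2.66 CPM. Arntl was at 0.875 and 1.29 CPM in these libraries, against 1.38 to 2.79 CPM at ZT 8 and 43.8 to 51.2 CPM at ZT 0. With a single library per diet no spread can be given for these values.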
